A study of Mus musculus with 40 samples.

Results

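The phase II conjugation enzymes described here are the glutathione S-transferases (Gst), the UDP-glucuronosyltransferases (Ugt) and the cytosolic sulphotransferases (Sult) of mouse liver. Members were protein-coding genes with a symbol of these families (Gst classes a, k, m, o, p, t and z, Ugt families 1 to 3 and numbered Sult genes) that reached a level of at least 1 CPM (counts scaled to the library total) in at least 5 of 40 mice. Of 65 genes with such a symbol, 39 passed, among 12942 genes tested in all. The 39 members were 16 of 24 Gst, 16 of 20 Ugt and 7 of 21 Sult genes, and 33 of them reached 1 CPM in all 40 mice. None had passed through 1 group alone. Of the 26 genes below the minimum, 8 had no count in any mouse. These 26 included every Gstp gene (at most 0.044 CPM), Sult2a1 to Sult2a6 (at most 0.057 CPM), and Gsta1 and Sult1e1, which reached 1 CPM in 2 mice each. Gstp1 and Gstp2 are each listed under 2 gene IDs, and the second ID of each was absent from the annotation searched for shared sequence. Stretches of 50 bases that another gene also holds make up 90.5% of Gsta1, 62.1% of Sult2a2, 54.3% of Gstp2 and 33.7% of Gstp1. They make up 25.5% to 34.5% of Sult2a1, Sult2a4 and Sult2a5. Reads that fitted more than 1 gene were not counted, so the low counts of these genes are uncertain. Such stretches made up only 8.36% of Sult2a3 and 6.63% of Sult2a6, and Gstp3 and Sult1e1 held none.

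Liver RNA of 40 male mice was sequenced after poly-A selection, to ask how the diet and hepatic PPARγ alter the response to pioglitazone (Pio), a thiazolidinedione that activates PPARγ. Wild-type (WT) mice were C57BL6/J animals bought from a supplier, not littermates, and liver-specific knockout (KO) mice carried loxP-flanked PPARγ alleles and Alb-Cre. The albumin promoter drives this Cre in hepatocytes, so the other cells of a KO liver keep the gene. From an age of 2 months, and for 3 months, mice received low-fat control diet, the same diet with 0.01% Pio by weight (Pio), high-fat diet with 60% of its calories from fat (HFD), or HFD with the same dose (HFD-Pio), with 5 mice in each of the 8 groups. All were 5 months old at harvest. The counts of WT and KO mice are in separate tables, so a difference in level between the genotypes cannot be told apart from a difference between the tables, and only effects within a genotype were compared.

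Phase II enzymes attach a water-soluble group to drugs, hormones, bile pigments and products of lipid oxidation, which can then leave the hepatocyte through export pumps. Gst enzymes use glutathione, Ugt enzymes of the endoplasmic reticulum mostly use UDP-glucuronate, and Sult enzymes of the cytosol use the sulphate donor PAPS. In rodent liver the genes are known targets of nuclear receptors such as CAR and PXR, of Nrf2 and of the Ah receptor, and several are known to differ along the liver lobule and between the sexes.

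Library totals ran from 15789401 to 49860981 counts in WT (median 23084681) and from 21542958 to 28334251 in KO mice (median 24703923), and members held 0.156% to 0.792% of the counts of a library. Pparg, whose count includes exons outside the deleted part, ranged from 5.79 to 14.2 CPM in WT and from 3.01 to 9.90 CPM in KO mice, so this total does not test the deletion. All 6 hepatocyte markers were present in every library, and their summed level was 31851 CPM in the lowest KO Pio mouse and at least 64604 CPM in every mouse of the other groups. KO Pio mouse 13 stood apart. Its members summed to 1592 CPM, against at least 5310 CPM in the other KO Pio mice, it was the lowest of all 40 mice in 23 members and the lowest of its group in 37, and its albumin was 10663 CPM against a median of 70165 CPM over 40 mice. KO HFD mouse 9 (3605 CPM) and WT control mouse 832 (4705 CPM) were each the lowest of their group in 29 members. The 5 stellate cell markers summed to 468 CPM in mouse 832 (group median 165 CPM) and the 6 markers of Kupffer cells and macrophages to 566 CPM in KO HFD mouse 9 (group median 267 CPM). The 7 acinar markers of the pancreas summed to 141 CPM in KO Pio mouse 13 and to 595 CPM in KO HFD mouse 10, and to at most 4.89 CPM in the 6 groups without these mice. The part of these marker levels in the results was not tested. Results are therefore given with and without mouse 13.

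**Figure D1:**
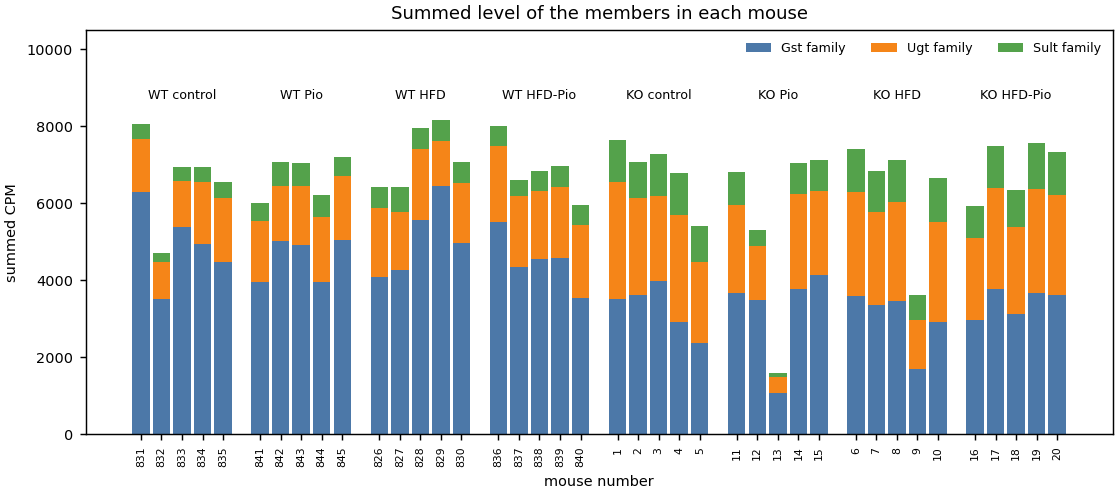
Summed level of the 39 members (y axis, CPM) in each of the 40 mice (x axis, mouse number), split by family into stacked bars. KO Pio mouse 13 reached 1592 CPM, below every other mouse, and the next lowest were KO HFD mouse 9 and WT control mouse 832.

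In each of the 8 groups the mean summed level was highest for the Gst family, followed by the Ugt and then the Sult family. In WT control mice the sums were 4915 CPM for Gst, 1373 CPM for Ugt and 353 CPM for Sult members, and in KO control mice 3279.7, 2526 and 1037 CPM, where genotype and table cannot be told apart. Levels of different genes were compared per kilobase of exon that no other gene shares, as means over the 40 mice of both tables. Gstm1, a mu class transferase, was the most abundant member, at 879 CPM per kilobase. It was followed by Ugt1a1, the enzyme that conjugates bilirubin (290 CPM per kilobase), by Gsta3 of the alpha class (264), Gstt1 of the theta class (195) and Sult1a1, a phenol sulphotransferase (172). Gstm1 was the first in each of the 8 groups, and the order of the others was not the same in each. The place of Ugt1a1 rests on the length used. Only 385 of its 2224 exon bases belong to no other gene, and per kilobase of all its exons it held 50.2 CPM and was the seventh of its family.

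The close relation of the genes limits what their counts can show. The Ugt1a genes of chromosome 1 join separate first exons to a common set of later exons, and reads that fitted more than 1 gene were not counted. In the annotation of this build (GENCODE M21), 82.7% of the exon bases of Ugt1a1 and 59.5% of those of Ugt1a5 also belonged to other genes, 9 in each case. A count of a Ugt1a gene thus rests mostly on the exon bases that belong to it alone, from 385 in Ugt1a1 to 2142 in Ugt1a6a. Among the other members, stretches of 50 bases that occur in another gene made up 49.8% of Gsta2 (mostly Gsta1), 41.7% of Ugt2b5 (mostly Ugt2b38), 28.8% of Gstm3 (mostly the gene Gm8834), 18.9% of Gstm1, 7.36% of Sult1a1 and 4.55% of Ugt2a3. In Gstm4, Gstt1, Gstk1, Gsto1, Sult1b1 and Sult2a7 there was no such stretch. For the members with many, the split between copies is uncertain.

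**Figure D2:**
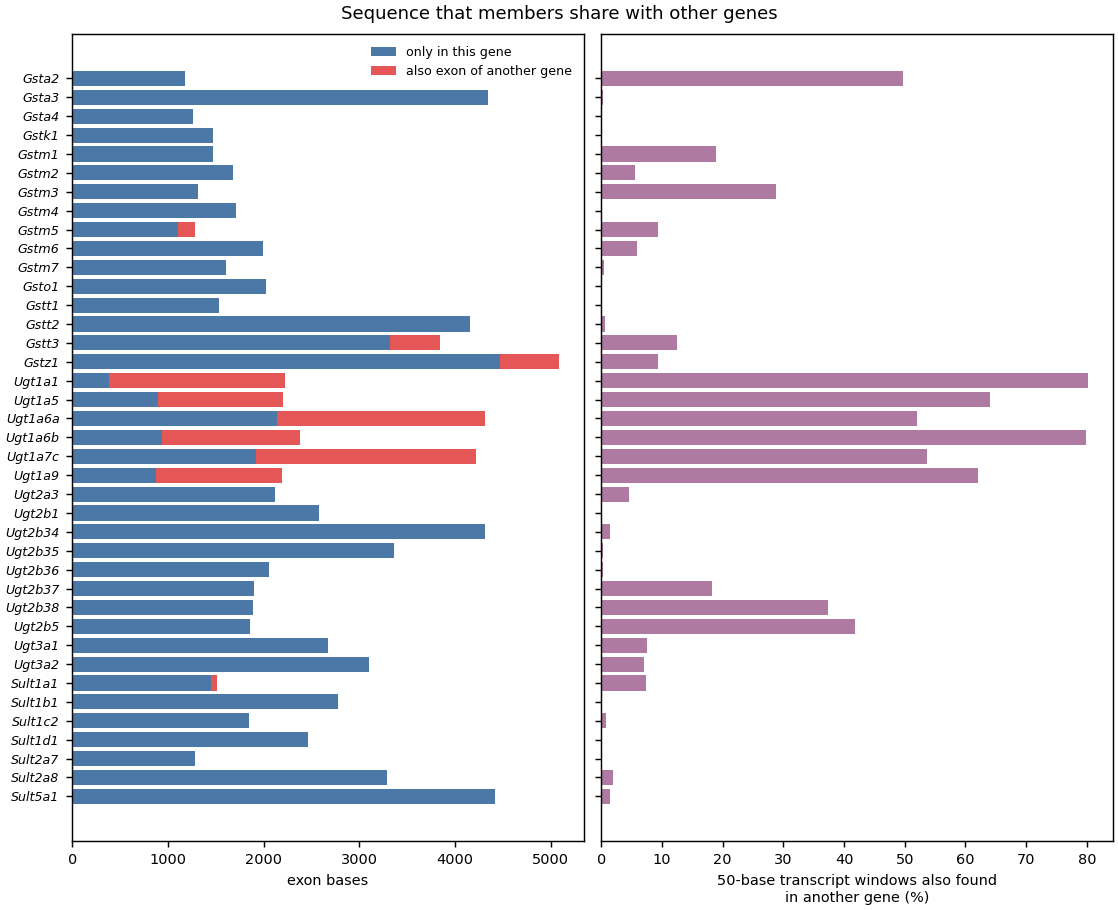
Exon bases of each member that belong to it alone or also to another gene (left, bases), and the percentage of its 50-base transcript windows that another gene also holds (right). The Ugt1a members share most, with 82.7% of the exon bases of Ugt1a1 shared, while Gstm4 and Gstt1 share no window.

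Only 4 members passed the test in a comparison of 2 groups, namely Gstm3, Ugt1a5, Sult1a1 and Ugt2a3, and their promoters are shown for that reason. Each run is the 250 bases before the RefSeq start of the gene in GRCm38.p6, 5′ to 3′ on the strand of the gene. It covers chr3:107969175-107969424 on the minus strand for Gstm3, chr1:88165762-88166011 on the plus strand for Ugt1a5, chr7:126676419-126676668 on the minus strand for Sult1a1 and chr5:87337196-87337445 on the minus strand for Ugt2a3. Capitals mark the Ah receptor core GCGTG, the one motif found.
Gstm3: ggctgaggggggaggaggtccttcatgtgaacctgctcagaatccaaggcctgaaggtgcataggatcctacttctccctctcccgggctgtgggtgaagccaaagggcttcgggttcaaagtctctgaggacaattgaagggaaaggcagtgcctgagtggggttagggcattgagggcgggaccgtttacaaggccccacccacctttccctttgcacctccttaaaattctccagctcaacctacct
Ugt1a5: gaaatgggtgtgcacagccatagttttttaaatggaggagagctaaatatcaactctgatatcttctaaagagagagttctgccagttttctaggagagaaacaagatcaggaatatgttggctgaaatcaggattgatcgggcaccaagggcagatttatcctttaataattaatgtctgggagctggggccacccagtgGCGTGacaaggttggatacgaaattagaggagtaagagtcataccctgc
Sult1a1: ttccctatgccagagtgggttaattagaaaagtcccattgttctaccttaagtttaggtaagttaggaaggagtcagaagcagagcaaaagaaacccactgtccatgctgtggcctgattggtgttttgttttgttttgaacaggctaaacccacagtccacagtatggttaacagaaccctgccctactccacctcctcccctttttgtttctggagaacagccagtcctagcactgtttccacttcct
Ugt2a3: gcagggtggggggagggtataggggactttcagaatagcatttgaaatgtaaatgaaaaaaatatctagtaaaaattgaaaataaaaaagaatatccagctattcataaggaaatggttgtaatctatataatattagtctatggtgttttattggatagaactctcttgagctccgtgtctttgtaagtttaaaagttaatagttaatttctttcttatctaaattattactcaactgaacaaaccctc

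The motifs below were searched on both strands from 250 bases before to 50 after the start, in the 34 members with a RefSeq entry. GCGTG occurred in 6 members (Gsta2, Gstm1, Gstm5, Sult1b1, Sult1d1 and Ugt1a5) and in 35.2% of all genes with an entry. The antioxidant response element core TGACNNNGC occurred in 3 members (Gsta3, Gstm5 and Gstm7) and in 14.0% of all genes. The STAT5 motif TTCNNNGAA occurred in 2 members (Gstm6 and Ugt1a6a) and in 9.55% of all genes. The PPAR direct repeat core GGNCAAAGG occurred in 0 members and in 2.12% of all genes. These are matches of letters and were not tested.

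Effects are log2 fold changes with standard errors (SE) from a single edgeR model of the 8 groups, with quasi-likelihood tests adjusted by the Benjamini-Hochberg method over all genes tested. Genes with an adjusted p up to 0.05 are called. Where a count from another fit or by unadjusted p has no share of all genes beside it, it is no result about the members. Levels are CPM, given mouse by mouse in ascending order of mouse number or as mean ± SD (n = 5 mice). Permuting the mice of 2 groups of 5 gave exact two-sided p-values, the smallest possible being 0.00794. In whole liver, fewer cells of a type and less RNA per cell cannot be told apart.

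On control diet Pio was followed in WT mice by a higher level of Ugt1a5 and Sult1a1 and a lower level of Gstm3. These were 3 of the 39 members, while 3.91% of all genes were called. The remaining members were not called, with log2 fold changes from -1.10 to 1.34. By family, 1 of 7 Sult, 1 of 16 Ugt and 0 of 16 Gst members rose and only Gstm3 fell. The median log2 fold change was 0.44 over the Sult, 0.0875 over the Ugt and 0.15 over the Gst members, against -0.0217 over all genes. In 6 members (Ugt1a5, Sult1a1, Sult1b1, Sult2a7, Gstt1 and Gstt2) all 5 mice on Pio exceeded all 5 controls, in 0 members all 5 were below them, and in 7.53% of all genes the groups did not overlap.

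Ugt1a5 (ENSMUSG00000089943, chromosome 1, 88166012 to 88218997 of GRCm38, plus strand) is one of the Ugt1a enzymes, with its own first exon. It had 19.9, 9.13, 39.5, 30.6 and 29.2 CPM in WT control mice and 79.9, 95.3, 137, 119.6 and 131 CPM in WT Pio mice. The groups did not overlap, and the lowest Pio mouse was above 2 times the level of the highest control mouse. The mean rose from 25.7 ± 11.6 to 113 ± 24.2 CPM, which gave a log2 fold change of 2.13 (SE 0.42, edgeR adjusted p = 0.00239, exact permutation test p = 0.00794). This call held with each of the 40 mice left out (1.92 to 2.34). The other 5 Ugt1a members had log2 fold changes between -0.27 and 0.47, and none was called.

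Sult1a1 (ENSMUSG00000030711, chromosome 7, 126672865 to 126676432, minus strand) sulphates phenols and was the most abundant Sult per kilobase over the mean of the 40 mice, although Sult2a8 was above it in 3 of 4 KO groups. It had 181, 167, 211, 183 and 191 CPM in WT control mice and 270.3, 463, 355, 325 and 328 CPM in WT Pio mice. The control values were tightly grouped and all below the Pio values. The mean rose from 187 ± 16.2 to 348 ± 71.0 CPM (log2 fold change 0.90, SE 0.23, edgeR adjusted p = 0.0175, exact permutation test p = 0.00794). Without WT Pio mouse 842, the highest, the log2 fold change was 0.78 and no longer called (edgeR adjusted p = 0.0662).

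Gstm3 (ENSMUSG00000004038, chromosome 3, 107963696 to 107969283, minus strand), a mu class transferase, had 115, 618, 215, 129 and 74.2 CPM in WT control mice and 25.7, 62.3, 65.0, 33.7 and 95.4 CPM in WT Pio mice. Mouse 832 was far above the other controls, and the lowest control lay within the Pio range. The mean fell from 230.2 ± 222 to 56.4 ± 27.8 CPM, with a log2 fold change of -2.03 (SE 0.48, edgeR adjusted p = 0.0132, exact permutation test p = 0.0159). Without mouse 832 the log2 fold change was -1.24 and was not called (edgeR adjusted p = 0.114). In that mouse the sum of the pericentral markers, most of it from Cyp2e1 and Glul, was also the lowest of its group, while Axin2, Lgr5 and Oat lay within the range of the other controls.

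**Figure D3:**
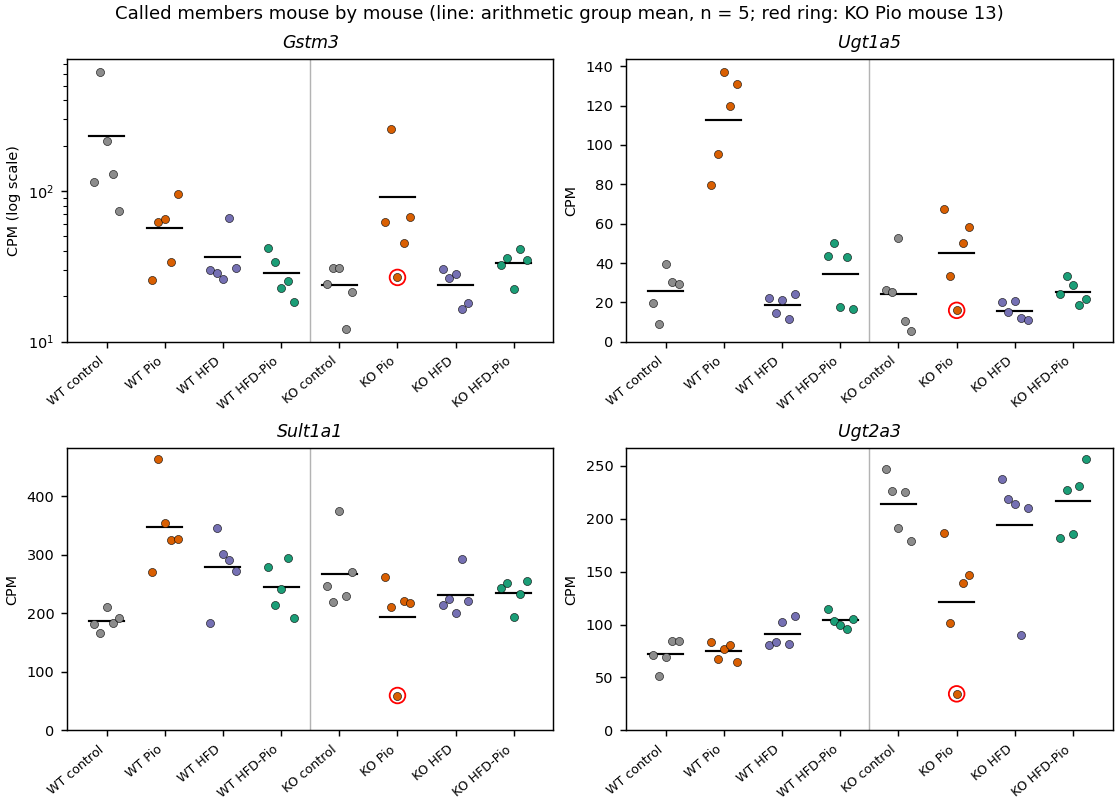
Levels of the 4 members called in a comparison of 2 groups, with 1 point per mouse, lines at the arithmetic group means (n = 5 mice) and a ring around KO Pio mouse 13 (y axes in CPM, on a log scale for Gstm3). Ugt1a5 in the WT Pio mice, from 79.9 to 137 CPM, lies above every other group, and Gstm3 is highest in WT control mouse 832 with 618 CPM.

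With KO Pio mouse 13 left out of the shared model, 8 members were called in this comparison of WT mice, while 15.6% of all genes were called. Among them the theta class genes Gstt1 (0.86, SE 0.25, edgeR adjusted p = 0.0166) and Gstt2 (0.75, SE 0.23, adjusted p = 0.026), the mitochondrial and peroxisomal Gstk1 (0.53, SE 0.16, adjusted p = 0.0243) and Sult1b1, known for thyroid hormones (0.73, SE 0.22, adjusted p = 0.0192), rose. The omega class Gsto1 fell (-0.37, SE 0.13, edgeR adjusted p = 0.0492). Gstt1 had 107 to 341 CPM in WT control and 403 to 645 CPM in WT Pio mice, without overlap. The log2 fold changes themselves were 2.15 for Ugt1a5, 0.91 for Sult1a1 and -2.03 for Gstm3. The SE of Sult1a1 was 0.16 against 0.23 with all mice. Among WT controls, mouse 832 was the lowest in Gstt1 (107 CPM, the others 294 to 341 CPM), Gstt2, Gstk1, Sult1b1 and Gsto1. Over the 40 fits that each left out 1 mouse, Gstt2 was called in 2. Gstt1, Gstk1, Sult1b1 and Gsto1 were called in 1 each. In these fits the log2 fold changes of the genes that rose went down to 0.65 for Gstt1, 0.63 for Gstt2, 0.36 for Gstk1 and 0.59 for Sult1b1.

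Markers of the lobule were summed in the same groups, and only the pericentral sum did not overlap between WT control and WT Pio mice. Of 8 markers of pericentral hepatocytes, 7 were in the counts and none was at 0 in any mouse, and their sum was 1746 to 7305 CPM in WT control and 7840.3 to 9546 CPM in WT Pio mice, without overlap. The 7 periportal markers summed to 5459.8 to 6726 CPM in WT control and 3901 to 7594 CPM in WT Pio mice. The lowest pericentral sum of the WT controls was that of mouse 832. Of the adipocyte markers, Adipoq and Lep were at or near 0 in all mice, and Plin1 reached 2.16 CPM in KO Pio mouse 13 and at most 0.628 CPM elsewhere, while the 5 markers together, mainly Cfd, summed to 0.484 to 3.89 CPM in WT control and 43.3 to 405 CPM in WT Pio mice. The part of these differences in the results of the members was not tested.

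On HFD, Pio was followed by no called member in WT mice (0 of 39, with 1.08% of all genes called by edgeR), although 8 members had an unadjusted p under 0.05, all of them higher with Pio. DESeq2 also called 0 members and limma with sample weights called 2. The median log2 fold change was 0.29 over the Ugt members, 14 of 16 of which were positive, 0.0645 over the Gst and -0.0135 over the Sult members, against -0.0169 over all genes. In 1 member, Ugt1a9, the groups did not overlap (7.12% of all genes). It had 2.46 to 3.62 CPM in WT HFD and 3.69 to 8.17 CPM in WT HFD-Pio mice, with a log2 fold change of 1.10 (SE 0.36, edgeR adjusted p = 0.122). Without KO Pio mouse 13, 11.6% of all genes and 3 members were called, all Ugt. These were Ugt1a9 (1.12, SE 0.33, edgeR adjusted p = 0.0255), Ugt1a7c (0.86, SE 0.28, adjusted p = 0.042) and Ugt3a1 (0.73, SE 0.25, adjusted p = 0.0497), which uses N-acetylglucosamine in place of glucuronate.

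The 3 members called for Pio on control diet had other values on HFD. Ugt1a5 had 22.05, 14.8, 21.2, 11.3 and 24.3 CPM in WT HFD mice and 43.6, 50.3, 17.7, 43.0 and 16.5 CPM in WT HFD-Pio mice. In 3 of 5 treated mice it was above every untreated mouse, and the other two were within the untreated range. The log2 fold change was 0.87 (SE 0.41, edgeR adjusted p = 0.299). For Sult1a1 the values were 184, 346, 301, 291 and 272 CPM in WT HFD and 279, 214, 242, 295 and 192 CPM in WT HFD-Pio mice, which overlapped (log2 fold change -0.19, SE 0.22, edgeR adjusted p = 0.729). Gstm3 overlapped as well, with 30.1, 28.5, 26.0, 66.0 and 31.0 CPM in WT HFD and 42.1, 33.9, 22.7, 25.2 and 18.2 CPM in WT HFD-Pio mice (log2 fold change -0.35, SE 0.47, edgeR adjusted p = 0.765).

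Whether Pio acted differently on HFD and control diet in WT mice was tested itself, as the Pio effect on HFD minus that on control diet, and 0 of 39 members passed (0.0773% of all genes were called by edgeR, 6 members had an unadjusted p under 0.05, and limma called 6 members and DESeq2 1). It was -1.26 for Ugt1a5 (SE 0.58, edgeR adjusted p = 0.371), -1.09 for Sult1a1 (SE 0.32, adjusted p = 0.135) and 1.68 for Gstm3 (SE 0.66, adjusted p = 0.292). Without KO Pio mouse 13, 5.25% of all genes and 1 member, Sult1a1, were called. Its Pio effect on HFD minus that on control diet was then -1.08 (SE 0.22, edgeR adjusted p = 0.00622), and leaving out WT Pio mouse 841 also gave 1 called member.

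HFD without Pio was followed in WT mice by a lower level of Gstm3 and by no other called member (1 of 39, with 1.31% of all genes called). The WT HFD values of Gstm3, from 26.0 to 66.0 CPM, all lay below the WT control values, from 74.2 to 618 CPM. The mean was 36.3 ± 16.7 CPM on HFD and the log2 fold change -2.66 (SE 0.50, edgeR adjusted p = 0.00255, exact permutation test p = 0.00794). The call held with each mouse left out, and without WT control mouse 832 the value was -1.88 (edgeR adjusted p = 0.0284). This comparison and that of Pio on control diet share the WT control mice, so the lower Gstm3 in both rests on the same 5 control values. Sult2a8, a hydroxysteroid sulphotransferase, was higher and Ugt1a9 lower in every WT HFD mouse, and neither was called (log2 fold changes 0.99 and -1.19), with no overlap in 3.05% of all genes.

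Over the families the medians for HFD were 0.18 in Sult, 0.15 in Ugt and -0.0895 in Gst members, against 0.00204 over all genes, and 6 of 7 Gstm members had a negative log2 fold change. The median over all 39 members was 0.0962 and turned to -0.0519 with limma and sample weights. Without KO Pio mouse 13, 6.55% of all genes and 5 members were called. Gstm3 (-2.69, SE 0.48, edgeR adjusted p = 0.0011), Gstm4 (-0.50, SE 0.15, adjusted p = 0.0391) and Ugt1a9 (-1.21, SE 0.33, adjusted p = 0.0219) fell. Sult1a1 (0.56, SE 0.15, edgeR adjusted p = 0.0237) and Gstz1, which acts in tyrosine breakdown (0.45, SE 0.14, adjusted p = 0.0451), rose. Ugt1a9 had 13.7 CPM in WT control mouse 832 and 3.69 to 6.87 CPM in the other WT controls. It was called in 2 of the 40 fits that each left out 1 mouse, with log2 fold changes from -1.37 to -0.76. The pericentral markers summed to 6650.3 to 13586 CPM in WT HFD mice and overlapped with WT control mice.

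In mice that received Pio, HFD was followed in WT by a lower Ugt1a5 (1 of 39 members, with 1.22% of all genes called). All values of WT HFD-Pio mice lay below those of WT Pio mice, and the log2 fold change was -1.71 (SE 0.42, edgeR adjusted p = 0.0306, exact permutation test p = 0.00794). The WT Pio mice are the same as in the comparison of Pio on control diet. Leaving out WT HFD-Pio mouse 836, 838, 839 or 840, or WT Pio mouse 843 or 845, raised the edgeR adjusted p to between 0.0508 and 0.107 (log2 fold changes -1.82 to -1.54), and the other 34 fits kept the call. In 6 members, all of them Ugt, every HFD-Pio mouse was above every Pio mouse (Ugt2a3, Ugt3a2, Ugt2b5, Ugt2b36, Ugt3a1 and Ugt1a6b), in Ugt1a5 every one was below, and 6.49% of all genes showed no overlap. The median log2 fold change was 0.24 over the Ugt, -0.0491 over the Gst and -0.0571 over the Sult members, against -0.00721 over all genes.

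Without KO Pio mouse 13, 8.68% of all genes and 5 members were called for HFD with Pio in WT mice. Ugt3a1 (1.07, SE 0.25, edgeR adjusted p = 0.00804), Ugt2b5 (0.78, SE 0.21, adjusted p = 0.0173) and Gsto1 (0.47, SE 0.13, adjusted p = 0.0243) rose. Ugt1a5 (-1.72, SE 0.40, edgeR adjusted p = 0.00787) and Sult1a1 (-0.52, SE 0.15, adjusted p = 0.0316) fell. The level of Ugt3a1 was 11.0 to 24.2 CPM in WT Pio and 28.3 to 40.1 CPM in WT HFD-Pio mice.

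**Figure D4:**
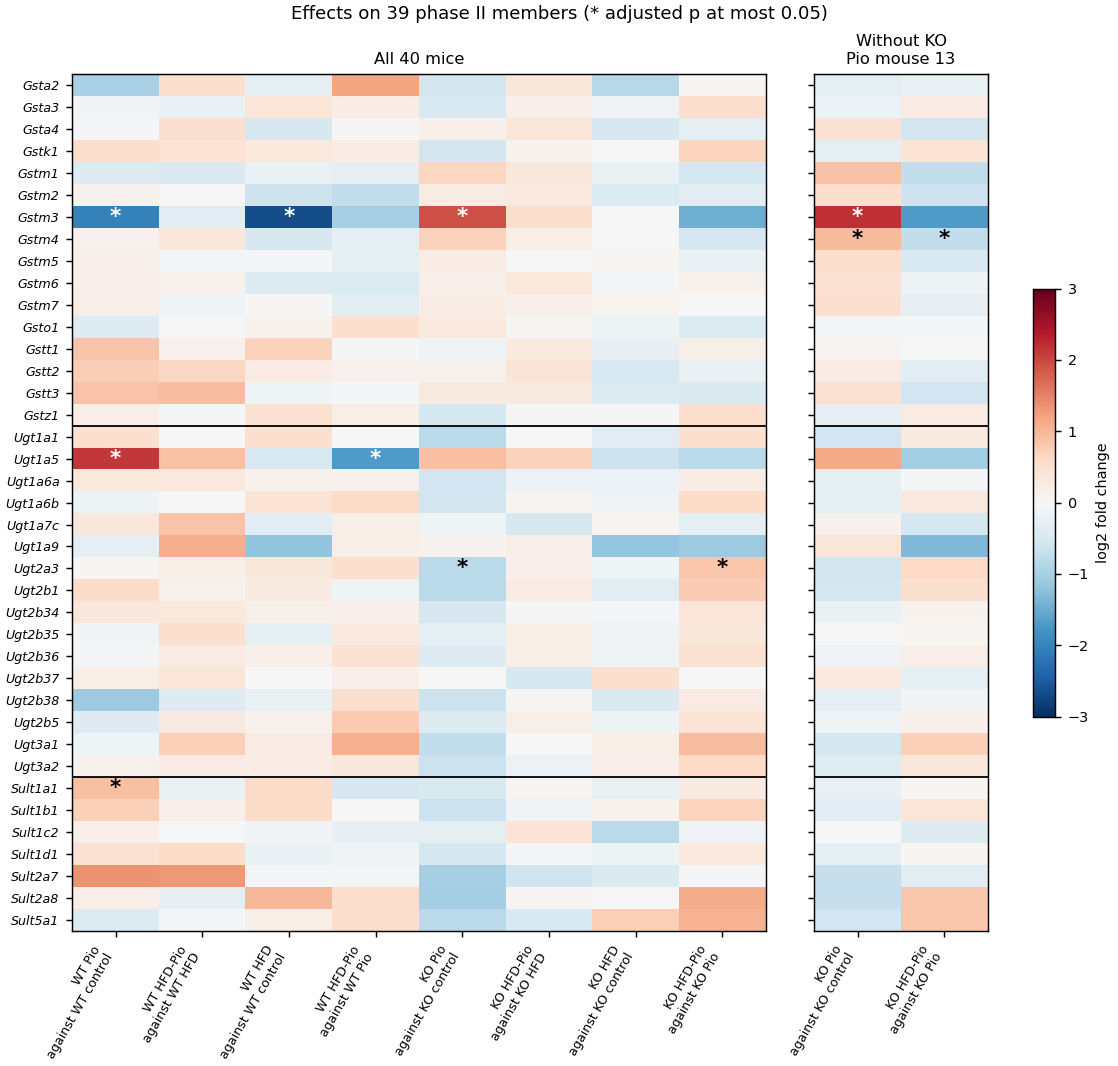
Log2 fold changes of the 39 members (rows, by family) in the 8 comparisons of 2 groups with all 40 mice, and in both comparisons that use KO Pio mice without mouse 13, with asterisks at an edgeR adjusted p of at most 0.05. Asterisks stand at Gstm3 in 3 comparisons, Ugt1a5 and Ugt2a3 in 2 each and Sult1a1 in 1 with all mice, and Gstm4 gains one in each comparison without mouse 13.

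In KO mice on control diet, Pio was followed by a higher Gstm3 and a lower Ugt2a3 (2 of 39 members, with 9.01% of all genes called). All 7 Sult members and 13 of 16 Ugt members had negative log2 fold changes (medians -0.65 and -0.51), and 11 of 16 Gst members had positive ones (median 0.19), against 0.0288 over all genes. Over all 39 members the median was -0.40, and -0.10 with limma and sample weights. Without mouse 13 the medians were -0.35 in Sult, -0.24 in Ugt and 0.43 in Gst members, 0.512% of all genes were called, and the called members were Gstm3 and Gstm4, both higher. Leaving out other mice gave from 0 called members (without KO control mouse 4) to 7 (without KO Pio mouse 14).

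Gstm3 had 24.2, 30.9, 31.0, 12.1 and 21.2 CPM in KO control mice and 62.5, 257, 26.7, 45.0 and 67.0 CPM in KO Pio mice. Only mouse 13, with 26.7 CPM, lay within the control range, and mouse 12 was far above the others. The mean rose from 23.9 ± 7.85 to 91.5 ± 93.6 CPM (log2 fold change 1.94, SE 0.48, edgeR adjusted p = 0.0183, exact permutation test p = 0.0238). It was 2.20 without mouse 13 (edgeR adjusted p = 0.0308), 1.09 without mouse 12 (adjusted p = 0.072) and 1.77 without KO control mouse 4 (adjusted p = 0.0569), and only the first of these kept the call. Fitted on the KO mice alone, Gstm3 was not called.

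The neighbouring Gstm genes were compared because the Gstm genes form a cluster on chromosome 3. With all mice the 7 members had log2 fold changes of 0.15 to 1.94 for Pio in KO mice, and without mouse 13 of 0.43 to 2.20. Without that mouse the KO Pio mice were above every KO control mouse in 4 Gstm members (Gstm1, Gstm3, Gstm4 and Gstm5) and below in Sult2a8, while 7% of all genes did not overlap. With it, only Sult2a8 did not overlap (3.7% of all genes). Gstm4, which shares no 50-base stretch with another gene, had 29.3 to 35.6 CPM in KO control mice, and its log2 fold change without mouse 13 was 0.96 (SE 0.16, edgeR adjusted p = 0.00342), against 0.69 with it (SE 0.23, adjusted p = 0.0544). In WT mice Gstm1 (ENSMUSG00000058135, chromosome 3, 108012255 to 108017973, minus strand) had 3139, 1503, 2543, 2158 and 1649 CPM on control diet and 995, 1799.7, 1949, 1280.0 and 2336 CPM with Pio, which overlapped and were not called (-0.39, SE 0.27, edgeR adjusted p = 0.49). In KO mice it had 766, 875, 740.4, 621 and 551 CPM on control diet and 1096, 1538, 399, 1117 and 1371 CPM with Pio. All KO Pio mice but mouse 13 were above the KO controls, and Gstm1 was not called with it (0.64, SE 0.27, edgeR adjusted p = 0.124) or without it (0.87, SE 0.24, adjusted p = 0.0884).

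**Figure D5:**
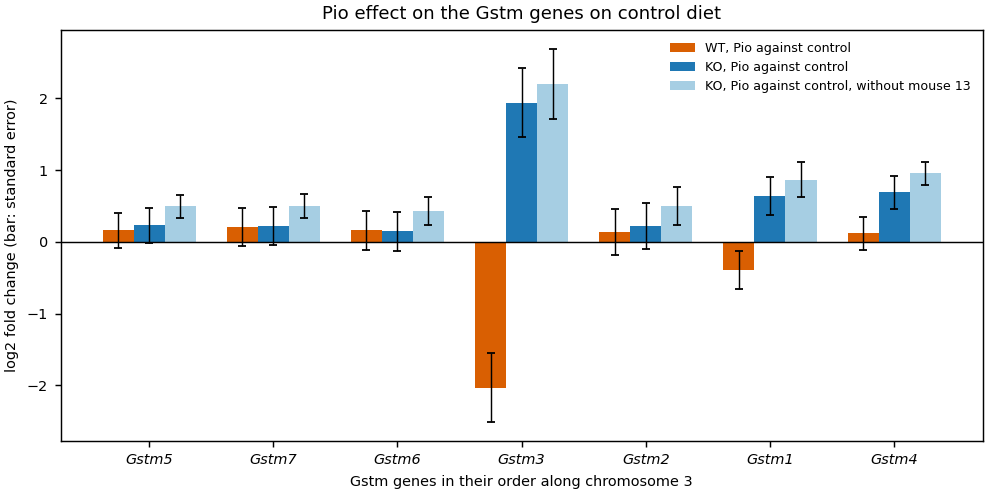
Log2 fold change for Pio on control diet (y axis, error bars show the standard error) of the 7 Gstm members in their order along chromosome 3, in WT mice and in KO mice with and without mouse 13. Gstm3 lies at -2.03 in WT and at 1.94 in KO mice, and the other Gstm members in WT mice lie between -0.39 and 0.21.

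Ugt2a3 (ENSMUSG00000035780, chromosome 5, 87324972 to 87337195, minus strand) had 247, 226, 191, 225 and 179 CPM in KO control mice and 186, 101, 34.5, 139 and 147 CPM in KO Pio mice. The groups overlapped only through KO Pio mouse 11. The mean fell from 214 ± 27.9 to 122 ± 57.2 CPM, with a log2 fold change of -0.81 (SE 0.24, edgeR adjusted p = 0.0352, exact permutation test p = 0.0159). The call was lost without mouse 13 (-0.56, edgeR adjusted p = 0.172) and without KO control mouse 1, 2, 3 or 4 (-0.85 to -0.76, adjusted p 0.0562 to 0.0861). It was also lost with no filter on low counts and with the genotypes fitted separately, and it held without both mouse 13 and KO HFD mouse 9. In WT mice the groups overlapped and the effect was not called, with 71.1, 51.3, 69.2, 84.1 and 84.8 CPM in control and 83.5, 67.5, 77.0, 81.0 and 65.0 CPM in Pio mice (log2 fold change 0.0526, SE 0.24, edgeR adjusted p = 0.941).

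The sum of the 7 pericentral markers was lower with Pio in KO mice, at 6728 to 11536 CPM in KO control and 1382 to 6280.3 CPM in KO Pio mice, without overlap and lowest in mice 12 and 13, and no marker was at 0. Most of this sum was Cyp2e1. Axin2, another of the 7, had 5.57 to 15.8 CPM in KO Pio mice, which overlapped with the KO control mice, and mouse 13 was the highest of the 40. The 5 markers of blood cells summed to 147 to 265 CPM in KO control and 197 to 511 CPM in KO Pio mice. The 14 genes known for sex bias in mouse liver summed to 1773 to 3966 CPM in KO control mice and to 386 to 4144 CPM in KO Pio mice. Their part in the results of the members was not tested.

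The remaining comparisons of KO mice held few calls. For Pio on HFD 0 of 39 members were called by edgeR, limma or DESeq2, and 0.0155% of all genes (0% without mouse 13). No member had an unadjusted p under 0.05, and in no member did the groups separate (0.61% of all genes). The log2 fold changes ran from -0.59 to 0.69, with 15 of 16 Gst members positive and a Gst median of 0.28. The Gst sum was 1681 CPM in KO HFD mouse 9 and 2914 to 3590 CPM in the rest of that group. It was 2960 to 3761 CPM in KO HFD-Pio mice, which overlapped with that rest. Over all 39 members the median was 0.15, and 0.0224 with limma and sample weights. Ugt1a5 had 20.3, 14.9, 20.9, 11.9 and 10.9 CPM in KO HFD and 24.4, 33.2, 28.9, 18.8 and 21.9 CPM in KO HFD-Pio mice, which overlapped (log2 fold change 0.69, SE 0.41, edgeR adjusted p = 1.0). Gstm3 overlapped as well, with 30.2, 26.4, 28.0, 16.4 and 18.2 CPM in KO HFD and 32.4, 35.8, 22.4, 41.1 and 35.0 CPM in KO HFD-Pio mice (0.49, SE 0.47, edgeR adjusted p = 1.0). Ugt2a3 was low in KO HFD mouse 9, with 90.1 CPM against 209.7 to 237 CPM in the rest of that group. For HFD without Pio 0 members and 0.185% of all genes (0.388% without mouse 13) were called, 3 members had an unadjusted p under 0.05, and limma called 3 and DESeq2 0. Only Ugt1a9 did not overlap there (lower on HFD, 3.04% of all genes), with 7.26 to 18.8 CPM in KO control and 4.42 to 6.86 CPM in KO HFD mice and a log2 fold change of -1.16. In WT HFD mice Ugt1a9 was lower as well (-1.19, with WT control mouse 832 far above the other WT controls). It was called by edgeR with all mice in neither genotype.

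HFD in KO mice that received Pio was followed by a higher Ugt2a3 (1 of 39 members, with 4.96% of all genes called). It had 182, 227, 186, 231 and 256 CPM in KO HFD-Pio mice, which overlapped with the KO Pio mice through mouse 11, and a log2 fold change of 0.83 (SE 0.24, edgeR adjusted p = 0.0438, exact permutation test p = 0.0238). The KO Pio mice are the same as in the comparison of Pio on control diet. Without mouse 13 it was 0.59 and not called (edgeR adjusted p = 0.296). Leaving out KO control mouse 2 or 4, or any KO HFD-Pio mouse, also ended the call (0.76 to 0.88, edgeR adjusted p 0.0501 to 0.107), as did fitting with no filter on low counts or on each genotype alone, while 8 members were called without KO Pio mouse 11. Without mouse 13, Gstm4 was the one called member (-0.75, SE 0.16, edgeR adjusted p = 0.0412), with 0.0931% of all genes. With all mice 3 members (Gstk1, Sult2a8 and Ugt3a1) were higher in every HFD-Pio mouse (2.43% of all genes). Without mouse 13 the same 3 were higher and 7 were lower, among them Gstm1, Gstm3, Gstm4 and Gstm5 (4.16% of all genes). In KO mice the Pio effect on HFD minus that on control diet was called in 0 of 39 members and 0% of all genes by edgeR, with 2 members at an unadjusted p under 0.05, and limma called 1 and DESeq2 0.

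Pio effects on control diet differed between KO and WT mice in 5 of 39 members, while 7.87% of all genes were called. The difference, KO minus WT, was 3.97 for Gstm3 (SE 0.68, edgeR adjusted p = 0.00108), since Gstm3 fell in WT and rose in KO mice. It was -1.36 for Sult1a1 (SE 0.32, edgeR adjusted p = 0.00993), which had 246, 219, 374, 229 and 271 CPM in KO control and 262, 210.1, 59.5, 221 and 217 CPM in KO Pio mice, where mouse 13 was far below the others (log2 fold change -0.46, SE 0.22, adjusted p = 0.17). Both differences held with each of the 40 mice left out, from 3.12 to 4.26 for Gstm3 and from -1.49 to -1.13 for Sult1a1. For Gstm3, every such fit kept WT control mouse 832 or KO Pio mouse 12, each far above its group. No fit left out both, so these fits cannot show whether the difference rests on these mice. The count of called members ran from 2 to 8 over these fits and was highest without KO Pio mouse 11.

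The other 3 differences between the genotypes were lost when single mice were left out. For Ugt1a1 (ENSMUSG00000089960, chromosome 1, 88211959 to 88218997, plus strand) the difference was -1.27 (SE 0.39, edgeR adjusted p = 0.0405). It had 164, 54.2, 121, 104 and 84.3 CPM in WT control, 119, 164, 123.3, 153 and 172 CPM in WT Pio, 111, 98.4, 123.9, 141 and 74.9 CPM in KO control and 77.2, 42.4, 26.1, 85.5 and 84.8 CPM in KO Pio mice. The groups overlapped in both genotypes, and the effect was called in neither (0.47 in WT and -0.80 in KO mice). Leaving out WT control mouse 832, 834 or 835, WT Pio mouse 842, 844 or 845, KO control mouse 1, 3 or 4, or KO Pio mouse 13 ended the call (edgeR adjusted p 0.0519 to 0.0743). For Sult2a7, a hydroxysteroid sulphotransferase of at most 3.11 CPM, the difference was -2.34 (SE 0.75, edgeR adjusted p = 0.0472) and was called in 16 of 40 such fits, and for Sult1b1 it was -1.37 (SE 0.45, adjusted p = 0.0497) and was called in 9.

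Without KO Pio mouse 13, 5.78% of all genes and 6 members differed between the genotypes in their response to Pio on control diet. Gstm3 (4.23, SE 0.68, edgeR adjusted p = 0.000393), Gstm1 (1.25, SE 0.33, adjusted p = 0.0219) and Gstm4 (0.83, SE 0.22, adjusted p = 0.0199) were positive. Sult1a1 (-1.13, SE 0.23, edgeR adjusted p = 0.00302), Sult1b1 (-1.08, SE 0.31, adjusted p = 0.0331) and Gstk1 (-0.79, SE 0.24, adjusted p = 0.0436) were negative. All 7 Gstm differences were positive (0.26 to 4.23) and all 7 Sult differences negative (-2.05 to -0.14), against a median of 0.0211 over all genes. Ugt1a5, called for Pio in WT mice, had 26.5, 25.1, 52.9, 10.6 and 5.33 CPM in KO control and 67.4, 33.6, 16.0, 49.98 and 58.4 CPM in KO Pio mice. The KO groups overlapped, the effect was 0.90 (SE 0.41, edgeR adjusted p = 0.147), and its difference from WT was not called (-1.23, SE 0.58, adjusted p = 0.164).

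On HFD the Pio effects of KO and WT mice differed in 0 of 39 members (0.0927% of all genes called by edgeR, 2 members with an unadjusted p under 0.05, and 0 members called by limma or DESeq2). The HFD effects of the genotypes differed in 0 members without Pio (0.0618% of all genes, 4 members with an unadjusted p under 0.05, limma 3 and DESeq2 1) and in 0 with Pio (0.0155% of all genes, 3 members with an unadjusted p under 0.05, limma 4 and DESeq2 0). Without KO Pio mouse 13 the difference of the HFD effects without Pio was called in 1 member, Gstm3, at 2.70 (SE 0.66, edgeR adjusted p = 0.0396), with 1.05% of all genes.

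A sum over a subfamily does not depend on how its counted reads were split between close copies. It does not recover the reads that fitted more than 1 gene and were not counted. For Pio on control diet in WT mice the sum of the 6 Ugt1a members rose from 164 ± 51.2 to 291 ± 37.2 CPM. Most of this rise came from Ugt1a5 (25.7 to 113 CPM), while Ugt1a1 went from 105 to 146 CPM and Ugt1a6b and Ugt1a9 were lower. The test used the sum of all 9 Ugt1a genes matched by name, with those below the minimum level. It was called (log2 fold change 0.83, edgeR adjusted p = 0.0491), which is not separate from the call of Ugt1a5. The Gstm sum of 7 members was 2731 ± 603 CPM in control and 2066 ± 603 CPM in Pio mice and was not called. In KO mice the sum of the 6 Ugt1a members was 185 ± 39.5 CPM in control and 148 ± 61.2 CPM in Pio mice. The difference between the genotypes, tested on the sum of all 9 genes, was called (-1.15, edgeR adjusted p = 0.038). The Gstm sum was 916 ± 171 CPM in KO control and 1419 ± 589 CPM in KO Pio mice and was not called. It was 476 CPM in mouse 13 and 1378 to 2052 CPM in the other KO Pio mice, against 711 to 1124 CPM in KO control mice. The sums were fitted only with all 40 mice, so the part of mouse 13 in these results was not tested.

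Genes that supply the cosubstrates, carry the conjugates or control the families were taken from lists. Their counts stand beside 3.91% of all genes called for Pio on control diet and 1.08% on HFD in WT mice. Of 10 tested genes for glutathione supply and use, 1 rose with Pio on control diet in WT mice, the gamma-glutamylcyclotransferase Ggct (0.78, SE 0.21, edgeR adjusted p = 0.0319). None of 5 genes for UDP-glucuronate, 8 for sulphate and PAPS, 12 for other conjugation or 4 for the reversal of conjugation was called there. Of 9 genes for transport, Abcc4, an export pump of conjugates, rose with Pio in WT mice, both on control diet (1.45, SE 0.35, edgeR adjusted p = 0.0137) and on HFD (1.75, SE 0.37, adjusted p = 0.0126). Without mouse 13 each list but that for UDP-glucuronate held calls for Pio on control diet in WT mice, where 15.6% of all genes were called. Of the 10 glutathione genes 1 rose, again Ggct, and 1 fell, the glutathione reductase Gsr (-0.28, SE 0.0882, edgeR adjusted p = 0.0249). Of the 8 genes for sulphate and PAPS 3 rose and 1 fell, and the lowest adjusted p was that of Papss2, which makes PAPS (0.82, SE 0.20, edgeR adjusted p = 0.0046). Of the 12 for other conjugation the thiopurine methyltransferase Tpmt rose (0.75, SE 0.18, edgeR adjusted p = 0.0048) and the epoxide hydrolase Ephx1 fell (-0.75, SE 0.20, adjusted p = 0.0108). Of the 4 for reversal the sulphatase Arsb rose (0.55, SE 0.14, edgeR adjusted p = 0.00756) and the beta-glucuronidase Gusb fell (-0.37, SE 0.12, adjusted p = 0.033). Of the 9 transport genes 3 rose, namely Abcc4 (1.46, SE 0.36, edgeR adjusted p = 0.00514), the export pump Abcc3 (0.76, SE 0.24, adjusted p = 0.0298) and the uptake carrier Slco1b2 (0.83, SE 0.24, adjusted p = 0.0154).

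For Pio on HFD in WT mice without mouse 13, with 11.6% of all genes called, 2 of 5 genes for UDP-glucuronate rose, Ugdh (0.55, SE 0.15, edgeR adjusted p = 0.0179) and Ugp2 (0.80, SE 0.24, adjusted p = 0.0296), whose enzymes make UDP-glucuronate and UDP-glucose. Of the other lists, glutathione had 0 higher and 1 lower gene, sulphate and PAPS 2 and 1, other conjugation 2 and 0, reversal 0 and 0, and transport 2 and 0. The list of receptors and factors had 1 higher gene, Ppara (0.65, SE 0.22, edgeR adjusted p = 0.0476), and 1 lower, Foxa2 (-1.27, SE 0.34, adjusted p = 0.0165).

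Among 17 receptors and factors, Stat5b fell with Pio on control diet in WT mice (-0.50, SE 0.15, edgeR adjusted p = 0.0447), and Nr1i3, which encodes CAR, rose with HFD in WT mice (1.95, SE 0.39, adjusted p = 0.00604). In KO mice on control diet Nr1i3 fell with Pio (-1.17, SE 0.39, edgeR adjusted p = 0.0486), as did Slc35b1 of the UDP-glucuronate list (-0.62, SE 0.15, adjusted p = 0.0173), and Stat5a (0.67, SE 0.18, adjusted p = 0.0232), Foxa2 (2.00, SE 0.53, adjusted p = 0.0232) and Cux2 (6.86, SE 1.16, adjusted p = 0.00427) rose. None of these 5 calls was kept without mouse 13, and Cux2 was then below the minimum level. With HFD in KO mice on Pio, Cux2 and Naglu fell (-6.80 and -0.78, edgeR adjusted p 0.00984 and 0.0475), and neither call was kept without mouse 13. Pio effects on control diet differed between KO and WT mice in Gusb (0.64, SE 0.18, edgeR adjusted p = 0.0272), Stat5b (0.65, SE 0.21, adjusted p = 0.047) and Cux2 (6.70, SE 1.59, adjusted p = 0.0113) with positive signs. With negative signs they differed in Suox, a sulphite oxidase (-0.98, SE 0.31, edgeR adjusted p = 0.0438), the bile acid carrier Slco1b2 (-1.50, SE 0.44, adjusted p = 0.0319), Pparg (-1.21, SE 0.32, adjusted p = 0.0219) and Nr1i3 (-2.08, SE 0.54, adjusted p = 0.0191). Of these 7, Suox, Slco1b2, Gusb, Pparg and Nr1i3 were also called without mouse 13. No other listed gene was called in the 14 comparisons with all mice. Without mouse 13, Ppara rose (0.74, SE 0.22, edgeR adjusted p = 0.0199) and Stat5b again fell with Pio on control diet in WT mice (15.6% of all genes called). With HFD in WT mice Nfe2l2 then fell (-0.47, SE 0.14, edgeR adjusted p = 0.0373). Stat5a (0.56, SE 0.17, edgeR adjusted p = 0.0373) and again Nr1i3 rose there (6.55% of all genes called).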

How the data were processed

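Liver RNA was poly-A selected and sequenced by the authors, and reads were aligned with STAR 2.0.4b to GRCm38 and counted per gene with featureCounts 1.4.5 (versions from the submitters' processing notes) on Ensembl annotation, keeping uniquely aligned and unambiguous reads. The deposited values are raw counts per gene, in one table per genotype, without normalization. Repeated lines of a gene, 598 in the KO and 574 in the WT table, were identical and were kept once. After the join of 40594 genes, 355 ribosomal RNA genes were removed and genes at or above 1 CPM in no fewer than 5 of 40 mice were tested. Levels are counts divided by the library size scaled by TMM factors. All 8 groups entered a single model in edgeR 4.0.16 (R 4.3.3, robust quasi-likelihood test, common dispersion 0.085), with Benjamini-Hochberg adjustment over 12942 genes in each of 14 comparisons, which was tested on simulated data first. The exact permutation tests used log2(CPM + 0.5). Alternatives were limma 3.58.1 with sample weights, DESeq2 1.42.0, RLE size factors, no filter on low counts, genotypes fitted separately, subfamily sums, and leaving out each mouse. A fit without both KO Pio mouse 13 and KO HFD mouse 9 was chosen after seeing the data.

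Values per mouse are given for members called in a comparison of 2 groups and for the most abundant member of each family per kilobase. Members called in any comparison may be named, and those outside this rule, such as Gstt1, Gstt2, Gstk1, Gsto1, Gstm4, Ugt1a9, Ugt3a1 and Sult2a8, were chosen after their values were seen. The members and the gene lists were chosen with earlier results of these data known. Exons and shared sequence come from GENCODE M21 and promoters from RefSeq, both on GRCm38. The authors' annotation was Ensembl 76, so exon lengths may differ from those counted. The edgeR p-values rest on the spread between mice within groups, estimated for each gene over all groups of the fit together. Leaving out a mouse can therefore alter the calls between groups that do not hold it. The exact permutation tests used only the mice of the groups compared. Library totals ran from 15789401 to 49860981 counts, so low members such as Sult2a7 are the least precise.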

Additional observations from a re-analysis of the deposited data

Results flagged for a closer look

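In 48 groups of 5 mice (the 6 members described mouse by mouse in 8 groups), 7 had a mouse that stood far from the rest of its group. The rule flags about 1 in 20 independent groups by chance. The 6 members were measured in the same mice, and most were chosen because they were called. The 7 of 48 groups can therefore not be set against that rate. Gstm3 was high in WT control mouse 832 (618 CPM), WT HFD mouse 829 (66.0 CPM) and KO Pio mouse 12 (257 CPM). Sult1a1 was low in KO Pio mouse 13 (59.5 CPM) and high in KO HFD mouse 9 (292 CPM). In the same KO HFD mouse 9 Ugt1a1 (40.7 CPM) and Ugt2a3 (90.1 CPM) were low. The sum of the pericentral markers was lowest in mouse 832 among the WT controls and in mice 12 and 13 among the KO Pio mice, although Axin2, 1 of the 7, was highest in mouse 13.

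Pio effects on control diet that differed between the genotypes by their own test, as KO minus WT, were those of Gstm3 (3.97), Sult1a1 (-1.36), Ugt1a1 (-1.27), Sult1b1 (-1.37) and Sult2a7 (-2.34). The first 2 were called with each of the 40 mice left out, and the other three were not. For Gstm3 no fit left out both WT control mouse 832 and KO Pio mouse 12.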

How the results depend on the processing

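Counts of called members are given in the order of the main comparisons. They stand without the share of all genes that each of these fits called, so they show only how the calls depend on the processing. For Pio on control diet in WT mice (3 called) limma with sample weights called 10 members, DESeq2 5 and separate fits of the genotypes 5, with 9 when KO Pio mouse 13 and KO HFD mouse 9 were both left out and 2 to 8 when single mice were. For Pio on HFD in WT mice (0) limma called 2, and the fit without both mice 4, with 0 to 3 over single mice. For HFD in WT mice (1) limma and DESeq2 called 2 each and the fit without both mice 6 (1 to 5). For HFD with Pio in WT mice (1) limma called 10, DESeq2, RLE factors and separate genotypes 2 each, no filter on low counts 0 and the fit without both mice 6 (0 to 5). For Pio on control diet in KO mice (2) limma called 9, DESeq2 5, no filter 1, separate genotypes 0 and the fit without both mice 4 (0 to 7). For HFD in KO mice (0) limma called 3 (0 to 0 over single mice), and for HFD with Pio in KO mice (1) limma called 7, DESeq2 5, RLE factors 3, and no filter and separate genotypes 0 each (0 to 8, highest without KO Pio mouse 11). For the dependence of the Pio effect on diet in WT mice (0) limma called 6, and DESeq2 and the fit without both mice 1 each (0 to 1), and in KO mice (0) limma called 1. For the difference between the genotypes in the Pio effect on control diet (5) limma called 10, no filter 2 and the fit without both mice 8 (2 to 8). For that in the HFD effect without Pio (0) limma called 3 and DESeq2 1 (0 to 1), and with Pio (0) limma called 4 (0 to 1, highest without KO Pio mouse 11). The cause was not tested. With limma the median log2 fold change over the 39 members turned sign for HFD in WT mice (0.0962 to -0.0519), for HFD with Pio in KO mice (0.22 to -0.0960), and for the difference between the genotypes in the HFD effect without Pio (-0.24 to 0.0134) and with Pio (0.0750 to -0.16). For the dependence of the Pio effect on diet in WT mice it turned from 0.00362 to -0.00343 with RLE factors and to -0.00317 with DESeq2. For Ugt1a9 and HFD in WT mice the log2 fold change of -1.19 became 0.28 when reads were summed over the 9 Ugt1a genes matched by name, by construction of the sum. No paired analysis was possible because mouse numbers are unique to each mouse. Low members limit precision, since Sult2a7 did not exceed 3.11 CPM.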
